A study of Canis lupus familiaris with 18 samples.

Results

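High grade oligodendroglioma (HGO) of French bulldogs was compared with HGO of Boston terriers alone, without the boxers that share the study's comparison group. The members were chosen by the breed in the sample labels and were 13 of the 18 RNASeq libraries of the series. The 3 Boston terriers (numbers 2, 6 and 7) gave 1 library each. The 10 French bulldog libraries came from 9 cases, since French bulldogs 2 and 8 are labelled with 1 case number and their counts were summed. The library of French bulldog 6 was left out because it lacks glial marker genes, and the 4 boxers (numbers 1, 3, 4 and 5) were used only as a reference.

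All groups were pet dogs with a spontaneous tumor, and no animal carried an engineered allele. The tissue was formalin-fixed, paraffin-embedded HGO taken at surgery before any trial treatment, so neither breed had received a trial agent. Normal brain of these breeds was not analysed here, and a difference between breeds cannot be told apart from one that is present in tissue without a tumor. Ages, sexes and tumor locations are not in the labels and were not used. Each dog is 1 sample, so p-values measure the spread between dogs.

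HGO is a fast-growing brain tumor whose cells carry the genes of oligodendrocyte precursors, such as the transcription factors OLIG2 and SOX10. French bulldogs, Boston terriers and boxers are related short-skulled breeds that develop it often. Fibroblast growth factors (FGFs) are secreted proteins that bind FGF receptors on the cell surface and signal through the MAP kinase pathway, while integrins are paired surface receptors that tie cells to the matrix and other cells. Inserted extra copies (retrogenes) of FGF4 are known in dogs as a cause of short legs and of early disc degeneration, and a gene count does not separate reads of such a copy from reads of the gene itself.

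The total counted on genes was 8212452 to 17924670 per dog, the highest being the summed case. The mean was 11989869 counts in French bulldogs and 11109684 in Boston terriers, a difference of 880185 (two-sided exact permutation test, all 220 regroupings of the dogs, p = 0.595). Levels are given as CPM, which scales each library to the same total, with TMM scaling over the 16 dogs, and the smallest level taken as detectable, 3 counts, was 0.165 to 0.351 CPM in the 12 dogs of the comparison. The defining glial genes were present in every dog. SOX10 was at 160 to 456 CPM in French bulldogs and 329 to 464 CPM in Boston terriers. The library numbers of Boston terriers 6 and 7 repeat numbers that French bulldogs carry, while that of Boston terrier 2 is later than every French bulldog's. The labels do not say what these numbers mark, and if they mark sequencing series, series and breed cannot be told apart.

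The first question was whether any gene separated the tumors of these 2 breeds. The gene closest to it was ITGA9, an integrin subunit, which was 6.80-fold lower in French bulldogs, and FGF4 was read in every French bulldog but in no Boston terrier. At an adjusted p under 0.05, edgeR's quasi-likelihood F test called 0 of 17510 genes tested (0%). At an unadjusted p under 0.05 it gave 706 genes (4.03%), with 324 at a higher level in French bulldogs (1.85%) and 382 at a lower level (2.18%). The smallest adjusted p by edgeR was 0.0626, for ITGA9, and that of every other gene was at least 0.982. The DESeq2 Wald test called 20 of 18390 genes (0.109%), with 10 at a higher level and 10 at a lower one (0.0544% each), and limma-voom called 0. At an unadjusted p under 0.05, DESeq2 gave 1209 of 26738 genes (4.52%), of which the higher ones were 2.72% and the lower ones 1.81%.

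Groups that did not overlap were counted without a test. All 9 French bulldogs were above all 3 Boston terriers for 54 of the 17510 genes (0.308%), and all 9 were below them for 123 genes (0.702%), which makes 177 genes without overlap (1.01%). For a gene without ties, 1 of the 220 regroupings of the dogs sets the 9 above the other 3, and 1 sets them below. Some genes therefore separate by chance, and the separation of a single gene named below is no test.

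**Figure D1:**
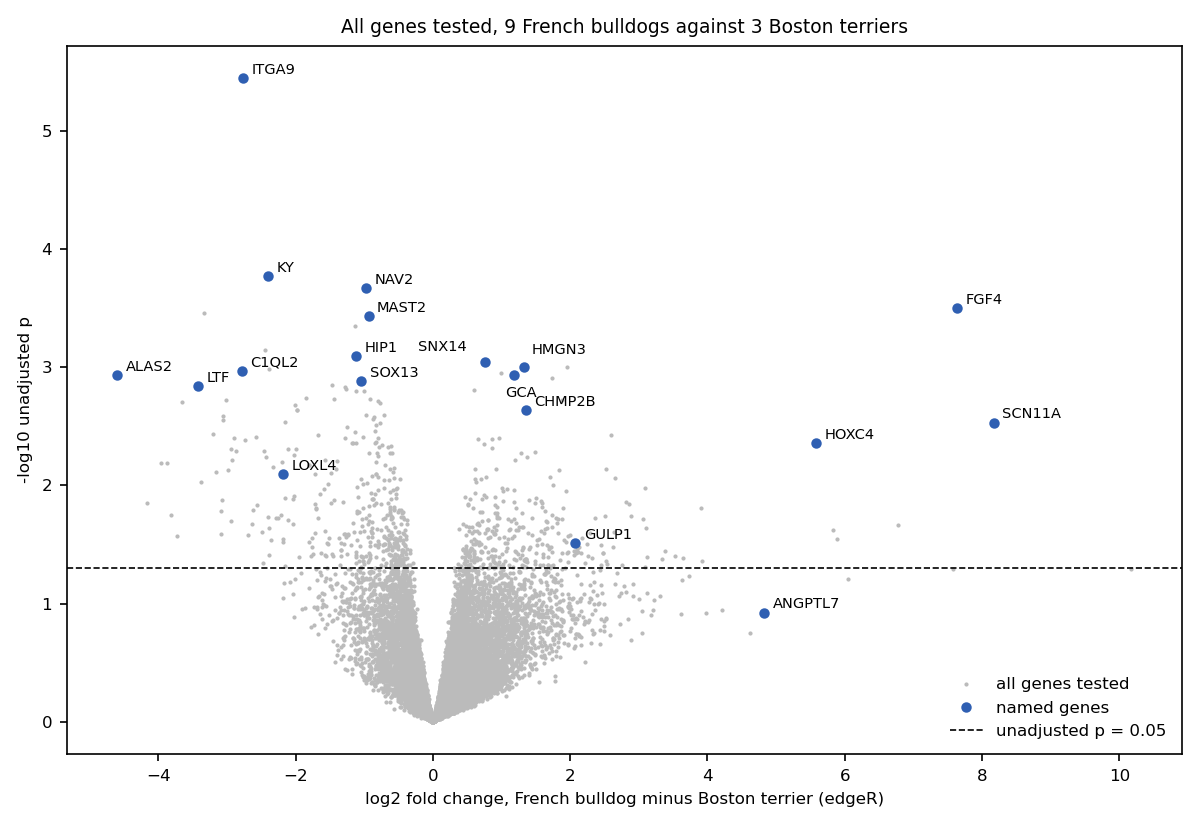
Each point is 1 of the 17510 genes tested, with the log2 fold change of French bulldogs minus Boston terriers (edgeR) on the horizontal axis and the -log10 of the unadjusted p on the vertical axis. ITGA9 stands highest at a log2 fold change of -2.77, and the fold change of FGF4 rests on Boston terriers with 0 counts and has no set size.

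FGF4, a secreted growth factor of early development, was counted in all 9 French bulldogs and in no Boston terrier or boxer. Its counts (ENSCAFG00000029983) were 2 to 65 in the 9 French bulldogs, and 0 in each of the 3 Boston terriers. The lowest French bulldog was at 0.185 CPM, the median at 1.60 CPM and the highest, French bulldog 1, at 5.07 CPM. All 4 boxers also had 0 counts, and the excluded French bulldog 6 had 26. Of the 9 French bulldogs, 8 were above the floor of 3 counts. Against the floor of 3 counts per library (0.263 CPM on average in Boston terriers), the French bulldog mean of 2.14 ± 1.56 CPM (SD, n = 9) was at least 8.15-fold higher. The unadjusted p by edgeR was 0.000317 and the adjusted p was 0.982, while the adjusted p by DESeq2 was 0.00255. FGF4 led the study's own gene list on these samples, so this direction is no independent evidence. The study states that an FGF4 retrogene is very frequent in French bulldogs, is not seen in Boston terriers and was not evaluated in boxers. Whether the reads counted here came from a retrogene was not tested.

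Among the FGF ligands tested, no other stood apart between the breeds without overlap. Of 22 ligands listed, 18 were in the counts and 9 were tested, with 4 positive and 5 negative fold changes and a median of -0.02 on the log2 scale, beside 0.07 for all genes tested. That median is the same with FGF4 at its lower bound, and ran from -0.19 to 0.21 with a dog left out. FGF11, an intracellular member of the family, was lower at an unadjusted p of 0.0104 by edgeR, with a log2 fold change of -1.10 ± 0.37 (SE). French bulldogs had 4.54, 8.58 and 10.1 CPM of FGF11 (lowest, median, highest), against 7.93, 10.97 and 32.2 CPM in Boston terriers 2, 6 and 7. The groups overlapped, and Boston terrier 7 stood above the rest. Without Boston terrier 7 the log2 fold change of FGF11 was -0.27 (unadjusted p = 0.451 by edgeR). FGF5, a ligand that controls hair length, was at 0 to 1.30 CPM in 8 French bulldogs and at 40.6 CPM in French bulldog 11.

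The FGF receptors and adaptors, through which these ligands act, had a median log2 fold change of 0.07 over 12 genes tested (-0.01 to 0.18 with a dog left out), and none passed an unadjusted p under 0.05. FGFR1 was at 53.1 to 138 CPM in French bulldogs and at 64.4 to 85.4 CPM in Boston terriers. FGFR2 (log2 fold change 1.31 ± 0.91, SE) and FGFR3 (1.24 ± 0.82, SE) had the smallest p of the receptors at 0.173 and 0.154 by edgeR, and both varied widely among French bulldogs, from 2.85 to 162 CPM and from 8.89 to 169 CPM. Of 14 genes that respond to FGF and MAP kinase signaling, DUSP6 alone reached an unadjusted p under 0.05 (1 of 14, beside 4.03% of all genes), which is no result about the list. DUSP6, a phosphatase that acts back on the MAP kinase ERK, was at 32.0, 96.2 and 158 CPM in French bulldogs (lowest, median, highest) and at 131, 187 and 220 CPM in Boston terriers 2, 6 and 7. Its log2 fold change was -0.93 ± 0.33 (SE; unadjusted p = 0.0149 by edgeR), and 8 of 9 French bulldogs were below every Boston terrier.

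ITGA9, the integrin alpha-9 subunit, is a receptor for tenascin and other matrix proteins. Its lowest, median and highest levels in French bulldogs were 32.4, 84.5 and 103 CPM. Boston terriers 2, 6 and 7 had 207, 722 and 538 CPM. The breeds did not overlap, and Boston terrier 2 lay nearest to the French bulldogs. The log2 fold change was -2.77 ± 0.36 (SE), with an adjusted p of 0.0626 by edgeR and 1.04e-06 by DESeq2. Boxers were at 91.1 to 268 CPM, with boxer 5 within the French bulldog range and boxer 4 within the Boston terrier range. The call depended on the setting, since the adjusted p by edgeR was 0.0181 with the boxers kept in the fit, 0.0240 without a filter on low counts and 0.0149 without Boston terrier 2. It was 0.928 without Boston terrier 6, 0.230 without Boston terrier 7 and 0.337 by limma-voom, and with Boston terrier 2 only it was 0.999 at a log2 fold change of -1.55.

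Of 40 integrin and matrix genes in the counts, 38 were tested, with a median log2 fold change of 0.24 (0.01 to 0.44 with a dog left out). At an unadjusted p under 0.05, ITGAV was higher (1 of 38, beside 1.85% of all genes), and ITGA9, COL9A2, ITGA2B and LOXL4 were lower (4 of 38, beside 2.18%). ITGA9 and LOXL4 were already on the study's own list from these samples, so this count is no independent evidence about the matrix genes. ITGAV, the alpha subunit of vitronectin receptors, was at 125, 202 and 389 CPM in French bulldogs (lowest, median, highest) and at 90.9 to 156 CPM in Boston terriers, with overlap. COL9A2, a chain of collagen IX, was at 167, 193 and 481 CPM in French bulldogs against 428 to 503 CPM in Boston terriers. Only French bulldog 11 reached the Boston terrier range. LOXL4, an enzyme of matrix crosslinking, was at 0.312, 2.19 and 4.85 CPM in French bulldogs and at 4.29, 11.3 and 16.0 CPM in Boston terriers 2, 6 and 7. Boxers ranged from 2.93 to 156 CPM (Boston terrier minus boxer -2.49 ± 1.16 on the log2 scale, SE, unadjusted p = 0.0466 by edgeR).

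**Figure D2:**
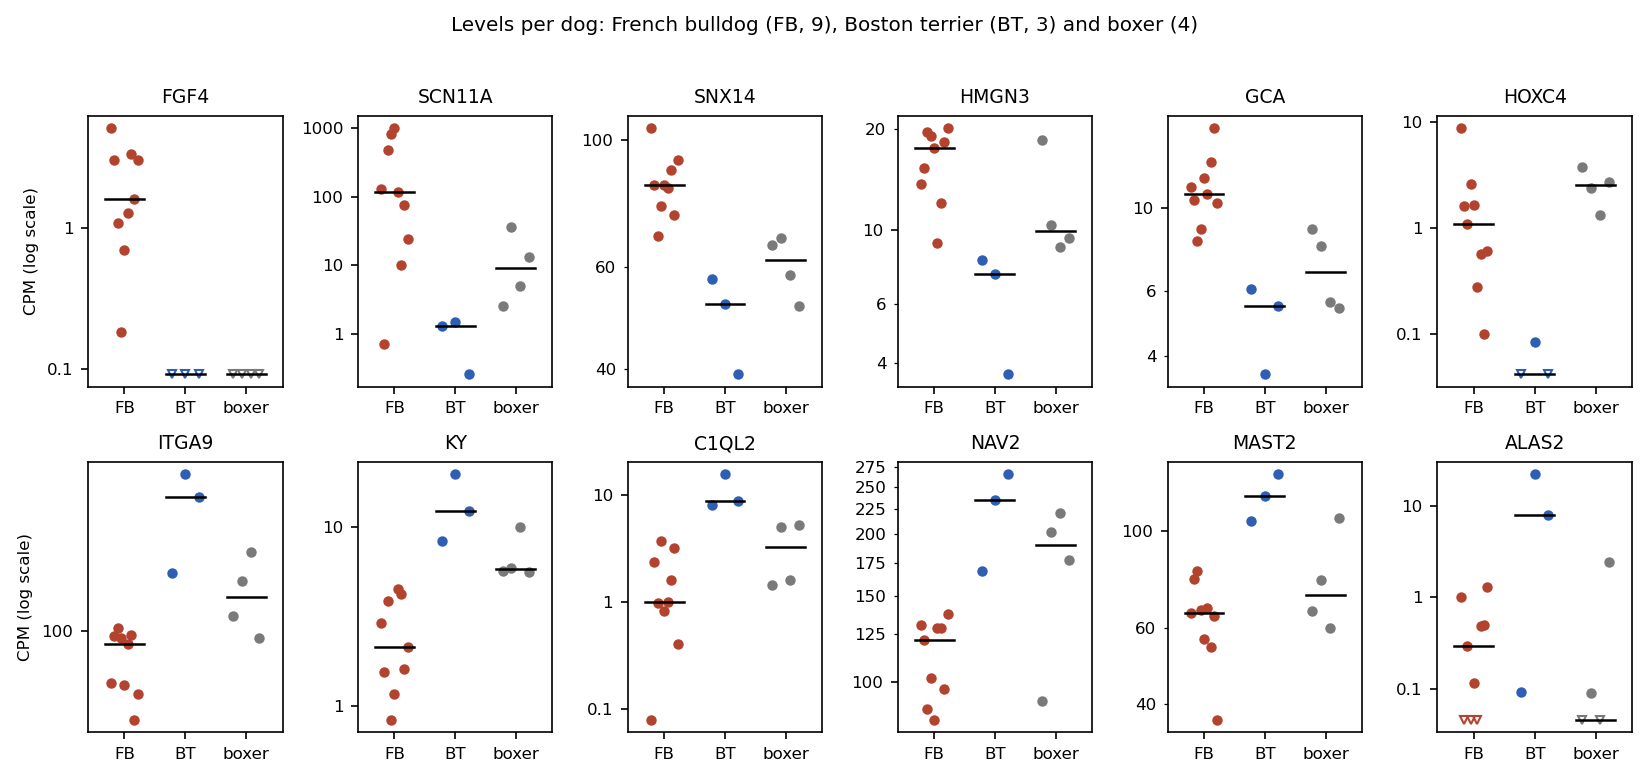
CPM per dog on log axes for 6 genes at a higher level in French bulldogs (top) and 6 at a lower level (bottom). Each point is 1 dog, black lines are group medians, and open triangles are dogs with 0 counts, drawn at an arbitrary low value. All Boston terriers are at 0 for FGF4, all French bulldogs are below 207 CPM for ITGA9, and ALAS2 is high in Boston terriers 6 and 7 but not in 2.

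Several genes of muscle, neurite growth and signaling also lay lower in every French bulldog than in any Boston terrier. KY, a protein of the muscle Z-disc that is expressed at a low level here, was at 0.831, 2.12 and 4.47 CPM in French bulldogs (lowest, median, highest). The 3 Boston terriers had 8.31, 19.7 and 12.2 CPM, and the boxers had 5.59 to 10.0 CPM. The log2 fold change was -2.40 ± 0.46 (SE; DESeq2 adjusted p = 0.00780). NAV2, which takes part in neurite outgrowth, had 83.6, 122 and 137 CPM against 168, 235 and 266 CPM in Boston terriers 2, 6 and 7, which gave a log2 fold change of -0.98 ± 0.19 (SE; DESeq2 adjusted p = 0.0161). MAST2, a microtubule-associated kinase, had 36.8, 64.8 and 81.2 CPM against 106, 121 and 136 CPM, a log2 fold change of -0.94 ± 0.20 (SE; DESeq2 adjusted p = 0.0272). The fold changes are those of edgeR, whose adjusted p was 0.982 for KY, NAV2 and MAST2. For NAV2 and MAST2 the boxers overlapped the French bulldogs, at 91.5 to 221 CPM and 59.8 to 108 CPM.

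C1QL2, a secreted synaptic protein, showed the same separation at low levels. French bulldogs had 0.0780, 1.00 and 3.70 CPM (lowest, median, highest), and Boston terriers had 8.03, 15.9 and 8.82 CPM. The log2 fold change was -2.78 ± 0.66 (SE; adjusted p = 0.982 by edgeR and 0.0677 by DESeq2). SOX13, a transcription factor of the SOX family found in oligodendrocyte precursors, was at 34.8, 67.1 and 107 CPM against 113 to 165 CPM (log2 fold change -1.04 ± 0.26, SE). CCDC146, a coiled-coil protein of centrioles and cilia, was at 5.22 to 12.3 CPM against 12.3 to 32.0 CPM, and its nearest dogs of the 2 breeds were level to 3 digits. Its log2 fold change of -1.28 became -0.71 without Boston terrier 7.

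CDH23 was called by DESeq2 and not by edgeR. This cadherin of hair cell bundles was at 43.3, 89.7 and 552 CPM in French bulldogs (lowest, median, highest) and at 183 to 336 CPM in Boston terriers. French bulldog 11 was above every Boston terrier and the other 8 were below. The log2 fold change was -1.05 ± 0.64 (SE; unadjusted p = 0.124) by edgeR and -1.66 by DESeq2 (adjusted p = 0.0148). DESeq2 was run at its default settings, which can replace an outlying count of a dog in a larger group. Without French bulldog 11, edgeR gave CDH23 a log2 fold change of -1.76 (unadjusted p = 8.22e-05, adjusted p = 0.476).

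Several genes with a higher level also stood apart without overlap. SNX14, a sorting nexin of late endosomes, was at 68.0, 83.4 and 105 CPM in French bulldogs (lowest, median, highest) and at 57.4, 51.8 and 39.2 CPM in Boston terriers. HMGN3, a nucleosome-binding protein, was at 9.12, 17.6 and 20.1 CPM against 8.12, 7.39 and 3.72 CPM. GCA, a calcium-binding protein called grancalcin, was at 8.17, 10.9 and 16.4 CPM against 6.07, 3.57 and 5.44 CPM. None of the 3 genes overlapped between the breeds. Their log2 fold changes were 0.76 ± 0.18, 1.32 ± 0.31 and 1.18 ± 0.29 (SE), and DESeq2 called all 3 (adjusted p 0.0272, 0.0272 and 0.0217). By edgeR, which gave these fold changes, the adjusted p of each was 0.982. Boxers had 51.4 to 67.5 CPM of SNX14, below every French bulldog, and 8.88 to 18.5 CPM of HMGN3 and 5.38 to 8.77 CPM of GCA, which overlapped the French bulldogs.

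CHMP2B and AFDN were also above every Boston terrier. CHMP2B, an ESCRT-III subunit of endosomal sorting, was at 10.9, 21.0 and 33.0 CPM in French bulldogs (lowest, median, highest) and at 6.14 to 9.89 CPM in Boston terriers. AFDN, the adherens junction protein afadin, was at 97.7, 136 and 242 CPM against 71.9 to 87.8 CPM. For AFDN the Boston terriers stood apart from the boxers as well (153 to 170 CPM; Boston terrier minus boxer -1.03 ± 0.28, SE, unadjusted p = 0.00174 by edgeR), and the French bulldog minus boxer value was -0.09. GULP1, an adaptor in the uptake of dying cells, was at 13.3, 19.2 and 169 CPM against 6.98 to 10.9 CPM, with 52.8% of the summed French bulldog level in French bulldog 11 (DESeq2 adjusted p = 0.0248). Its log2 fold change was 2.08 by edgeR (adjusted p = 0.982), 1.17 by edgeR without that dog and 1.15 by DESeq2.

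SCN11A, a sodium channel of sensory neurons, varied widely among French bulldogs. French bulldogs ran from 0.714 CPM in the summed case, through a median of 118 CPM, to 1012 CPM in French bulldog 5. Boston terriers had 1.31, 1.495 and 0.259 CPM, so 8 of 9 French bulldogs were above all 3. Boxers had 2.602 to 36.7 CPM, and the excluded French bulldog 6 had 0 counts. The log2 fold change was 8.17 ± 2.24 (SE), with an unadjusted p of 0.00295 by edgeR and an adjusted p of 2.55e-05 by DESeq2.

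HOXC4, a homeobox gene that marks the body axis behind the head, was at 0.1002, 1.08 and 8.73 CPM in French bulldogs (lowest, median, highest). Boston terriers held 1 count in all (Boston terrier 6), so no fold is given. Boxers had 1.32 to 3.76 CPM, so the boxers were within the French bulldog range (Boston terrier minus boxer, unadjusted p = 0.00124 by edgeR). Of 31 HOX genes in the counts, HOXC4 was the only one tested. A pair of Y RNAs, small RNAs of the Ro particle, were higher with no overlap: ENSCAFG00000022575 at 213, 419 and 802 CPM against 79.4 to 210 CPM, and ENSCAFG00000022568 at 1.52, 2.76 and 5.29 CPM against 0.605 to 1.21 CPM. The 4 boxers had 0.674 to 185 CPM of the former. Y RNAs have many near-identical copies, and how reads were split among them is not given in the sources used here.

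The genes the study named for French bulldogs against boxers and Boston terriers together were then read in the Boston terriers alone. The study chose them on these same samples, so their counts are not independent evidence of a direction. Of 14 genes named as higher, 12 were in the counts by symbol and 11 were tested. An unadjusted p under 0.05 was reached by 10 of the 11, all higher (background 1.85%), and 2 of them (FGF4 and SNX14) were above every Boston terrier (0.308% of all genes). The median log2 fold change was 0.76. POLH, the translesion polymerase eta, was at 4.77, 8.92 and 15.1 CPM in French bulldogs (lowest, median, highest) against 4.23 to 5.13 CPM in Boston terriers, and DLA88, the classical MHC class I gene of dogs, was at 6.22, 25.8 and 99.8 CPM against 7.95 to 18.6 CPM, with overlap. DLA genes are highly variable between dogs, and reads can be lost or shared between them. CMPK1, ZCRB1, PSMB1, LMBRD1 and MAPK6 had log2 fold changes of 0.37 to 0.77. TOM1L2 was the exception, with a log2 fold change of -0.17 ± 0.34 (SE; unadjusted p = 0.629 by edgeR), and it changed sign with the Boston terriers used.

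Of 17 genes named as lower, 12 were in the counts and 11 were tested. An unadjusted p under 0.05 was reached by 10 of the 11, all lower (background 2.18%), and 6 were below every Boston terrier (0.702% of all genes). The median log2 fold change was -0.998. HIP1, an endocytic adaptor that binds clathrin, was at 160, 249 and 358 CPM in French bulldogs (lowest, median, highest) and at 404, 807 and 438 CPM in Boston terriers (log2 fold change -1.12 ± 0.26, SE, and -0.73 without Boston terrier 6). KAT2B, a histone acetyltransferase, was at 151, 234 and 340 CPM against 366, 445 and 574 CPM, and CCDC78, a protein of centriole formation, was at 2.47, 7.02 and 12.6 CPM against 29.8, 19.4 and 14.1 CPM. The exception was ANGPTL7, an angiopoietin-like protein, at 0.647 to 1.86 CPM in 8 French bulldogs and 694 CPM in French bulldog 11, against 2.08 to 3.46 CPM in Boston terriers. French bulldog 11 held 98.6% of its summed level, and without that dog the log2 fold change was -1.18.

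HIP1R, the relative of HIP1 that also links clathrin to actin, was lower too, at 33.0, 41.2 and 65.4 CPM in French bulldogs (lowest, median, highest) against 47.1, 88.1 and 95.7 CPM in Boston terriers 2, 6 and 7. Its log2 fold change was -0.83 ± 0.23 (SE; unadjusted p = 0.00310 by edgeR), and 7 of 9 French bulldogs were below every Boston terrier. Of 24 clathrin endocytosis genes tested, HIP1 and HIP1R were thus the 2 at an unadjusted p under 0.05 (beside 4.03% of all genes), and the list had a median of -0.03 (-0.13 to 0.12 with a dog left out). HIP1 was already on the study's own list, so this count is no independent evidence.

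Marker genes of the cell types that HGO tissue can hold were read next, since bulk RNASeq mixes them. In bulk tissue, fewer cells of a type and less RNA per cell cannot be told apart. No marker gene passed an adjusted p under 0.05 by edgeR. The 15 oligodendrocyte lineage genes tested had a median log2 fold change of -0.37 (-0.57 without French bulldog 1 and -0.22 without Boston terrier 2), with 12 negative and 3 positive, and their summed level was 4219 to 17613 CPM in French bulldogs and 11663 to 13353 CPM in Boston terriers. OLIG2 was at 91.9, 155 and 203 CPM in French bulldogs (lowest, median, highest) and at 244, 176 and 291 CPM in Boston terriers 2, 6 and 7, which gave a log2 fold change of -0.62 ± 0.23 (SE; unadjusted p = 0.0174 by edgeR). OLIG1 had a value of -0.02.

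Myelin genes, made by mature oligodendrocytes, had the largest positive median of the lists with at least 8 genes tested, at 1.14, with 13 of 14 members positive and 0 at an unadjusted p under 0.05. The median was 0.50 without French bulldog 9, and 1.02 to 1.41 without any other dog. Their summed level ran from 522 CPM in the summed case to 9602 CPM in French bulldog 9, a range that held all 3 Boston terriers (1130 to 1681 CPM). MBP, myelin basic protein, was at 94.2 to 4777 CPM in French bulldogs and 309 to 370 CPM in Boston terriers. Astrocyte genes had a median of 0.78 (11 of 12 positive, 0 at an unadjusted p under 0.05), and their summed level was 1028 to 8196 CPM against 1492 to 4360 CPM. That median was 0.46 without French bulldog 9 and 0.34 without Boston terrier 7. All 17 neuron genes were positive, with a median of 0.43 that became 2.30 without Boston terrier 6 and ran from 0.07 to 0.57 without any other dog. That dog had 248 CPM of the synaptic gene SNAP25, while Boston terriers 2 and 7 had 31.1 and 4.75 CPM.

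**Figure D3:**
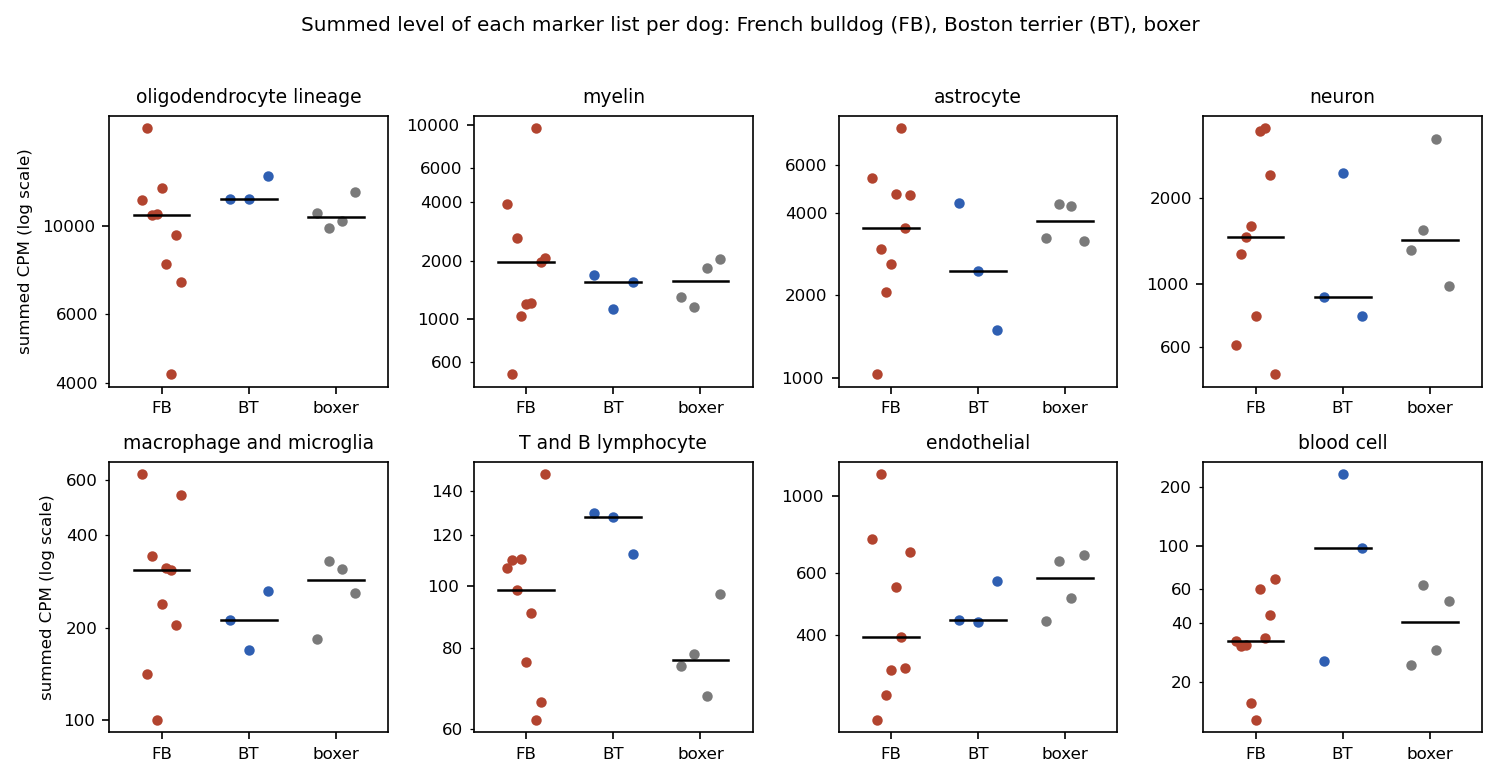
Summed CPM of the genes of 8 marker lists per dog on log axes. Each point is 1 dog and black lines are group medians. French bulldogs span or surround the Boston terriers in the neural, macrophage and endothelial lists, and blood cell genes are high in Boston terriers 6 and 7, at 235 and 97.6 CPM.

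Immune genes had positive medians but no adjusted call. The 18 macrophage and microglia genes had a median of 0.41 (15 positive), with summed levels of 100 to 630 CPM in French bulldogs and 170 to 262 CPM in Boston terriers. With a dog left out, that median ran from 0.19 to 0.67. CD163, a scavenger receptor of macrophages, was at 2.69, 19.4 and 40.6 CPM (lowest, median, highest) against 6.81 to 13.1 CPM. MHC class II presentation genes (median 0.66, 7 of 8 positive), interferon response genes (0.75, 15 of 16 positive), complement genes (0.59, 10 of 15 positive) and MHC class I presentation genes (0.44, 12 of 15 positive) were above the median of all genes, and DLA88 alone among them had an unadjusted p under 0.05, beside 4.03% of all genes. DLA88 was already on the study's own list. Without French bulldog 11, the median of the interferon response genes was -0.05 and that of the complement genes 0.04. With any other dog left out, they ran from 0.60 to 1.19 and from 0.16 to 0.71. The medians of the MHC class II and class I genes were 0.41 and 0.29 without Boston terrier 6. The interferon response genes summed to 61.3 to 255 CPM in 8 French bulldogs, 1367 CPM in French bulldog 11 and 150 to 258 CPM in Boston terriers. T and B lymphocyte genes were scarce, with 4 of 15 above the filter. The T cell gene CD3E was at 0 to 0.702 CPM in French bulldogs and 0 to 0.332 CPM in Boston terriers. CD4 was lower at an unadjusted p of 0.0187 by edgeR, at 0.462 to 10.9 CPM against 1.96, 44.6 and 12.6 CPM in Boston terriers 2, 6 and 7, and its log2 fold change of -2.40 became -0.94 without Boston terrier 6.

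Blood cell genes were high in part of the Boston terrier group. ALAS2, the heme synthesis enzyme of red cell precursors, was at 0 to 1.31 CPM in French bulldogs and at 0.0933, 22.5 and 7.95 CPM in Boston terriers 2, 6 and 7. LTF, the neutrophil protein lactoferrin, was at 0 to 1.00 CPM against 0.560, 10.3 and 3.11 CPM. In both genes Boston terrier 2 was within the French bulldog range. The log2 fold change of LTF was -3.42, and -2.06 without Boston terrier 6. A list of 18 blood cell genes was then written after these values were seen, so it carries no test. The median log2 fold change of the 10 tested was -2.72, a value that the choice of genes set. The summed level of the 14 members in the counts was 12.8 to 67.9 CPM in French bulldogs, 25.7 CPM in Boston terrier 2, 235 CPM in 6 and 97.6 CPM in 7. The platelet genes ITGA2B (2.52, 13.9 and 5.44 CPM) and GP1BA (0.280, 7.89 and 1.56 CPM), which are among the integrins and the DESeq2 calls, had the same order over Boston terriers 2, 6 and 7, and the log2 fold change of ITGA2B went from -2.02 to -1.14 without Boston terrier 6. Among genes given earlier, ITGA9, KY, C1QL2 and HIP1 also rose from Boston terrier 2 to 7 to 6, while NAV2, LOXL4 and DUSP6 did not. The part of blood in these results was not tested.

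The S phase and G2/M lists of cell cycle genes had 0 members at an unadjusted p under 0.05 by edgeR, beside 4.03% of all genes. The median log2 fold change was 0.09 over 37 S phase genes and 0.26 over 46 G2/M genes, and with a dog left out it ran from -0.21 to 0.58 and from -0.01 to 0.72. Summed G2/M levels were 1145 to 4061 CPM in French bulldogs and 1130 to 2197 CPM in Boston terriers. CDK6, a kinase of cell cycle entry, was higher at an unadjusted p of 0.0420 by edgeR, at 10.1, 31.3 and 98.6 CPM (lowest, median, highest) against 10.2 to 19.97 CPM. EGF, a ligand of the EGF receptor, was lower at an unadjusted p of 0.00578, at 0 to 1.37 CPM against 1.12, 4.49 and 1.90 CPM. PDGFRA, a growth factor receptor often active in glioma, was at 171, 1346 and 5126 CPM in French bulldogs and at 1387 to 1750 CPM in Boston terriers.

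Pathways of metabolism and stress were read against the 4.03% of all genes at an unadjusted p under 0.05, and at their sizes a count of 0 to 2 is no result about a pathway. The PI3K and Akt genes (25 tested, median 0.05), the hypoxia genes (21 tested, -0.04) and the mTORC1 genes (21 tested, 0.24) had 0 members at an unadjusted p under 0.05. With a dog left out, these medians ran from -0.01 to 0.09, from -0.14 to 0.13 and from 0.05 (without Boston terrier 6) to 0.41 (without Boston terrier 7), in the same order. RRP9 of the Myc targets, ENO3 and IRF4 of the IL2-STAT5 list and BAG3 of the stress list were lower, with log2 fold changes of -0.62, -0.66, -2.19 and -1.34 and unadjusted p by edgeR of 0.0484, 0.0140, 0.0282 and 0.0350. The list of genes behind breed traits such as coat and skull shape had 17 tested, and FGF4, already on the study's own list, alone passed (beside 4.03% of all genes). DVL2, SMOC2 and BMP3, which are linked to tail and skull shape in dogs, had values of -0.59 ± 0.34, -0.66 ± 0.69 and 0.94 ± 1.13 (SE).

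**Figure D4:**
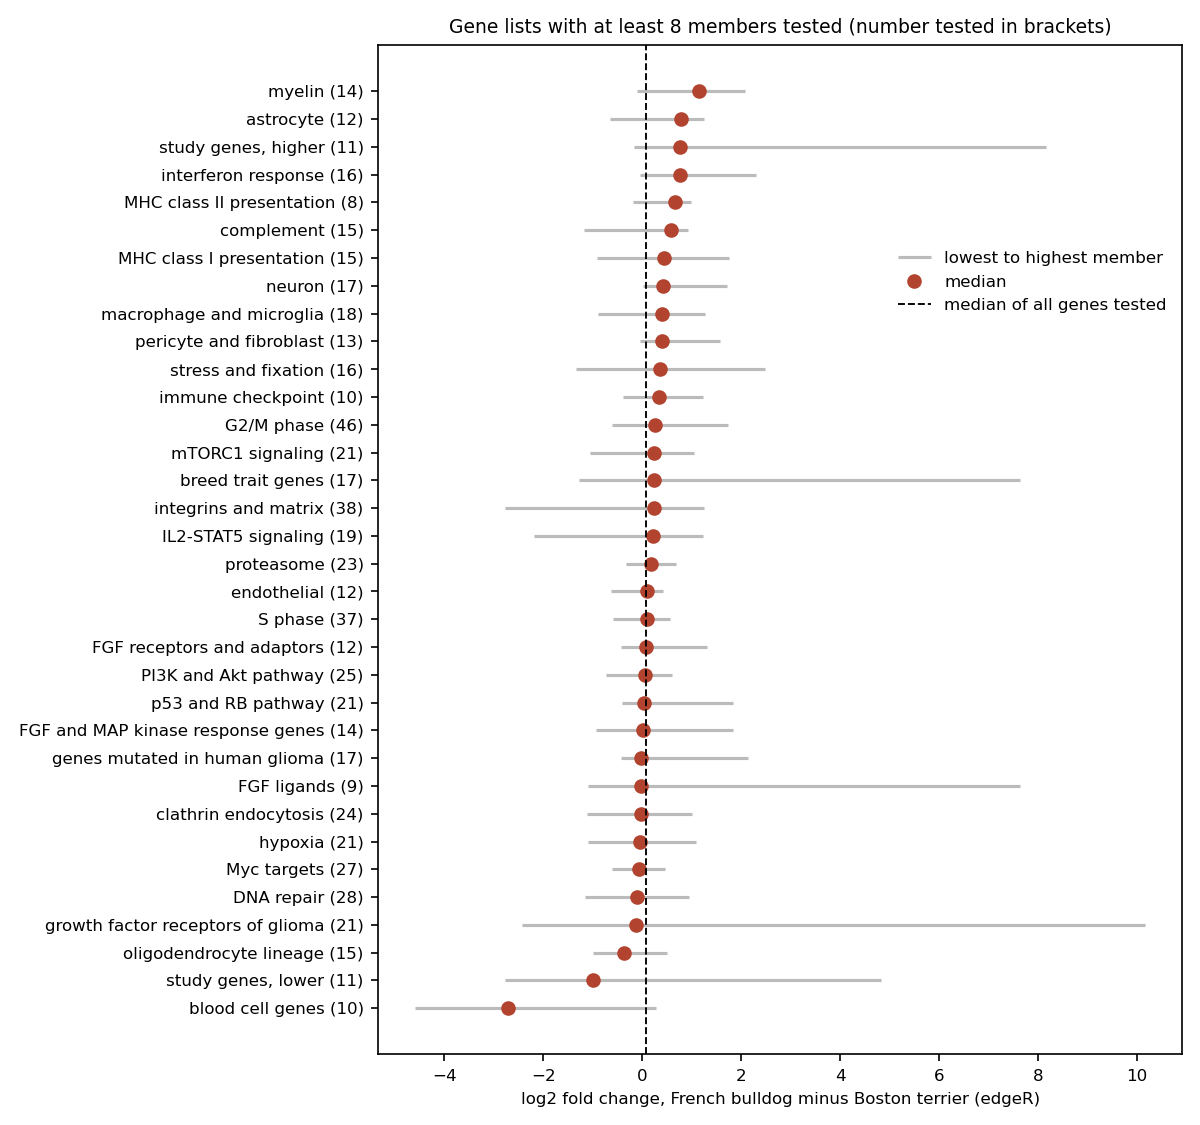
Median log2 fold change (dots) and the lowest and highest member (grey lines) of the gene lists with at least 8 genes tested, with the median of all 17510 genes as a dashed line at 0.07. Myelin stands highest at 1.14, and the place of the blood cell genes (-2.72) was set by choosing them after their values were seen. The right ends of the FGF ligand and breed trait lines are both FGF4, and have no set size because Boston terriers had 0 counts.

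Genes were next grouped by chromosome, because genes of a chromosome can shift together in a tumor. Copy number was not measured, and its part in these shifts was not tested. For 11420 genes on 39 chromosomes, the median shift against the mean of the 3 breeds was taken in each dog. On 0 of the 39 chromosomes did the 2 breeds stand apart without overlap. The largest difference of means was on chromosome 12, where Boston terriers 2, 6 and 7 had shifts of 0.22, -0.35 and -0.55, French bulldog 10 had -0.22 and the other French bulldogs had 0.12 to 0.48. Of its 352 genes, 43 were higher at an unadjusted p under 0.05 (12.2%, beside 1.43% of all grouped genes). SNX14, HMGN3, POLH, PSMB1, LMBRD1 and DLA88 are grouped there.

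With each dog's chromosome shift subtracted, an alternative chosen after the data were seen, the difference of mean log2 CPM went from 0.77 to 0.36 for SNX14 and from 1.34 to 0.93 for HMGN3, and the breeds then overlapped in both. It went from 0.66 to 0.26 for PSMB1, from 0.76 to 0.35 for LMBRD1, from 0.84 to 0.43 for POLH and from 1.34 to 0.94 for DLA88. On chromosome 36, where 10 of 107 genes were higher at an unadjusted p under 0.05 (9.35%), GCA went from 1.15 to 0.85 and kept its separation. Chromosome 23 held 24 of 207 genes that were lower (11.6%, beside 2.35%), with shifts of 0.45 in Boston terrier 7 and -0.70 in the summed case and -0.09 to 0.06 in the other 10 dogs. ITGA9 and KY are grouped on it. Their differences went from -2.69 to -2.45 and from -2.43 to -2.19, and both remained without overlap. HIP1, KAT2B, CHMP2B and CCDC146 overlapped between the breeds after the subtraction.

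**Figure D5:**
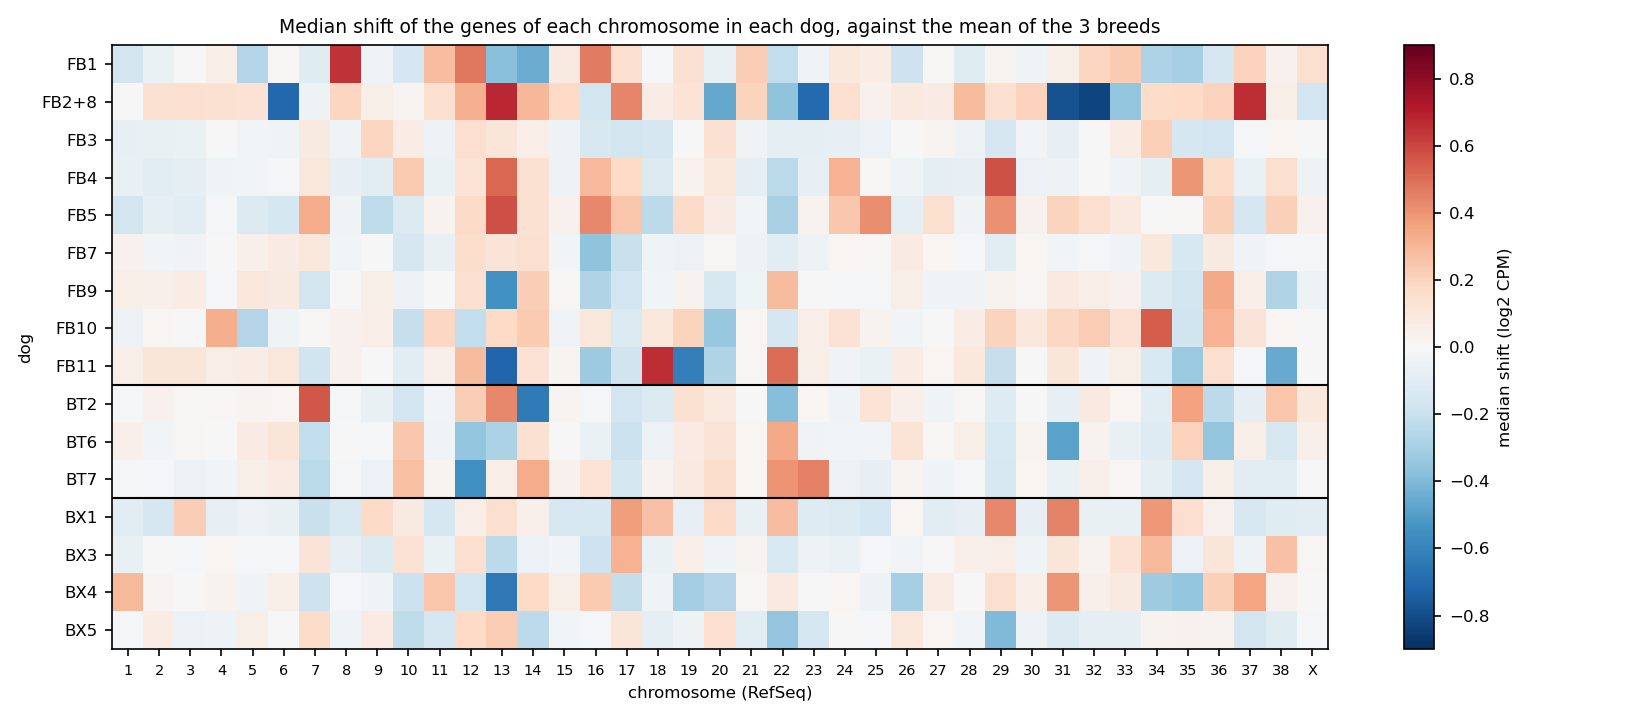
Median shift in log2 CPM of the genes of each chromosome (columns) in each dog (rows), with French bulldogs (FB) above, Boston terriers (BT) in the middle and boxers (BX) below. Chromosome 12 is low in Boston terriers 6 and 7 (-0.35 and -0.55) and the summed case (FB2+8) has the lowest shift of all, -0.83 on chromosome 32.

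Over all genes, the breeds were set against the spread between dogs. Of the variance, the leading 3 principal components took 30.03%, 18.3% and 11.7%, and 7.74% of the sum of squares of log2 CPM lay between the breeds (one-sided exact permutation test, all 220 regroupings, p = 0.573). The median distance in log2 CPM was 157 between French bulldogs (36 pairs), 132 between Boston terriers (3 pairs) and 137 between dogs of different breeds (27 pairs).

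The Boston terriers and boxers, which the study joined as 1 comparison group, were compared in a fit of all 3 breeds. edgeR called 0 of 17794 genes (0%), with 659 at an unadjusted p under 0.05 (3.7%, made up of 1.74% with a positive and 1.97% with a negative Boston terrier minus boxer value), and DESeq2 also called 0. In the same fit the French bulldog minus boxer contrast had 0 adjusted calls and 1380 genes at an unadjusted p under 0.05 (7.76%), made up of 4.32% with a positive and 3.43% with a negative value. For the genes that led the comparison with Boston terriers, the boxers took different places. FGF4 was at 0 in both breeds. ITGA9 was 1.52 ± 0.46 (SE) higher in Boston terriers than in boxers on the log2 scale (unadjusted p = 0.00446 by edgeR). HIP1 had a Boston terrier minus boxer value of 0.08 ± 0.29 (SE; unadjusted p = 0.792 by edgeR), and a French bulldog minus boxer value of -1.05.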

How the data were processed

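RNA from formalin-fixed, paraffin-embedded HGO was made into stranded, ribosome-depleted libraries and sequenced as paired-end reads. The authors trimmed the reads (Trimmomatic 0.33), mapped them to the dog genome (HISAT2 2.1.0) and counted them with featureCounts. The deposited values are raw counts per gene, without normalization, for 29993 genes listed by Ensembl ID, 16324 of them with a symbol. How the counting treated strand and reads with several matches is not given in the sources used here, so antisense and near-identical genes cannot be told apart.

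The members and gene lists were chosen with earlier results of these data known. Counts of 9 French bulldogs and 3 Boston terriers were fitted with edgeR 4.0.16 in R 4.3.3 (quasi-likelihood F test, TMM, filterByExpr by breed, robust dispersions, no covariate, two-sided, Benjamini-Hochberg adjustment over 17510 genes, threshold 0.05). Fold changes come from this fit of 12 dogs, and levels are CPM scaled over 16 dogs. The Boston terrier minus boxer contrast came from a fit of all 3 breeds. A standard error is the size of a log2 fold change over root F. French bulldogs 2 and 8 were more alike than any of the other 44 pairs of French bulldog libraries (chi-square per gene 9.59 against 34.0 to 191) but differed by more than sampling noise, and they were summed as 1 case. The floor of 3 counts covers counting error only. Log2 CPM for components, distances and chromosome shifts used a prior count of 2. The code was tested on simulated data.

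Alternatives were DESeq2 1.42.0, limma-voom (limma 3.58.1), other normalizations and filters, 1 surrogate variable (sva 3.50.0), a block for the dog's number, other samples and each dog left out. Genes were grouped by chromosome by symbol with a RefSeq table (UU_Cfam_GSD_1.0, another build than that of the counts), and no position is given. Genes named were FGF4, the 10 with a symbol and the smallest p in each direction, the study's own lists, and up to 2 per list and direction. FGFR1, PDGFRA, DVL2, SMOC2, BMP3, CDH23, GULP1, GP1BA and the list of blood cell genes were chosen after their values were seen, as was the subtraction of chromosome shifts. The result for 1 gene of the study's lists is not reported here.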

Additional observations from a re-analysis of the deposited data

Results flagged for a closer look

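Within the 9 French bulldogs, a dog was picked out where its gap to the nearest other dog was a large part of the group's range (Dixon's test), and chance alone picks out about 1 in 20 groups. Of 91 groups tested, 6 genes and 13 chromosomes were picked out. CDH23 and GULP1 had been chosen after their values were seen, and all groups share the same dogs, so these counts cannot be read against that rate. French bulldog 11 stood far above the others for CDH23 (552 CPM), GULP1 (169 CPM), ANGPTL7 (694 CPM) and COL9A2 (481 CPM). The summed case of French bulldogs 2 and 8 stood below the others for RRP9 (6.31 CPM) and BAG3 (0.988 CPM).

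In chromosome shifts (log2 CPM), the summed case was picked out most often. It had the lowest shift on chromosomes 23 (-0.70), 6 (-0.71), 32 (-0.83), 33 (-0.35) and 31 (-0.79), and the highest on chromosome 37 (0.67). French bulldog 11 was lowest on chromosome 19 (-0.61) and highest on 18 (0.66). French bulldog 1 was highest on chromosome 8 (0.65) and lowest on 14 (-0.45), French bulldog 10 was highest on 4 (0.33) and lowest on 12 (-0.22), and French bulldog 5 was highest on 25 (0.42).

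In data outside the comparison, the excluded French bulldog 6 had 26 counts of FGF4, where every Boston terrier and boxer had 0.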

How the results depend on the processing

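The number of genes called at an adjusted p under 0.05 was 0 by edgeR as reported and 20 by DESeq2. It was 1 with upper quartile normalization, without a filter on low counts, with at least 10 counts in every dog, with French bulldogs 2 and 8 kept as 2 samples, with French bulldog 2 alone for the shared case, with the boxers kept in the fit, with Boston terriers 6 and 7 only and with 1 surrogate variable, and that gene was ITGA9 each time. With Boston terrier 2 only it was 1, SPO11. Leaving out each dog in turn gave 0 to 2 calls, with ITGA9 and ENSCAFG00000054199 called without French bulldog 3, and ITGA9 without Boston terrier 2. DESeq2 size factors in edgeR, limma-voom, dispersions that were not robust, small non-coding RNAs or the top gene removed, and French bulldog 6 kept in or 8 alone gave 0. Boston terrier 2 alone assumes that the lone dog varies like the other breed. Members of the gene lists called were 5 by DESeq2 and 1 under upper quartile normalization, no filter, at least 10 counts, French bulldogs 2 and 8 apart or 2 alone, and boxers in the fit, and 0 to 1 with a dog left out. The adjusted p of FGF4 was 0.00255 by DESeq2, and 0.510 to 1 over the dogs left out. Boston terriers against boxers gave 0 to 1 calls, with 1 without boxer 4. The total counts per dog differed by -318802 with French bulldogs 2 and 8 apart, the opposite sign (exact permutation test, two-sided, p = 0.787). Fold changes that turned on the log2 scale were ALAS2 (2.01), CD4 (0.91), IRF4 (3.61) and TOM1L2 (0.11) with Boston terrier 2 only. TOM1L2 ran from -0.40 to 0.26 over the dogs left out, and was 0.35 under the block. ANGPTL7 was -1.15 by DESeq2, -0.31 by limma-voom, -1.78 under the block and -1.18 to 5.04 over the dogs left out. The cause of these turns was not tested. The replicate block over the numbers 2 and 7 gave 0 calls and 325 genes at an unadjusted p under 0.05, and the numbers did not pair the dogs (correlations of deviations 0.07 and -0.41). Genes at an unadjusted p under 0.05 were 706 as reported, 1209 by DESeq2, 1201 without a filter, 1061 with 1 surrogate variable, 318 with Boston terrier 2 only and 475 to 887 with a dog left out. Of the named genes and settings, 1520 values were counted as the same, 22 as stronger, 10 as reversed and 6 as moved in another way. Nearly all named genes began far from the threshold by edgeR, so staying on its side is no support. The subtraction of chromosome shifts has no adjusted p.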

Other observations

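Some growth factor, cell cycle and homeobox genes were much higher in 1 or 2 French bulldogs than in the other French bulldogs, and are given as values, chosen after these were seen. IGF2, an insulin-like growth factor of the fetus, was at 7956 CPM in French bulldog 1, at 0.606 to 3.79 CPM in the other 8 French bulldogs and at 0.0933 to 1.66 CPM in Boston terriers. CCND1, the cyclin D1 gene of cell cycle entry, was also highest in French bulldog 1, at 1166 CPM, with 10.5 to 179 CPM in the other French bulldogs and 33.7 to 79.5 CPM in Boston terriers. EGFR, the receptor of EGF, was at 208 CPM in French bulldog 11 and at 2.68 to 23.8 CPM in the other French bulldogs, beside 4.82 to 10.3 CPM in Boston terriers. ANLN, a scaffold protein of cell division that mature oligodendrocytes also make, was at 605 CPM in French bulldog 9, at 29.3 to 59.3 CPM in the other French bulldogs and at 19.1 to 53.3 CPM in Boston terriers. HOXD8, a homeobox gene, was at 42.7 CPM in French bulldog 11 and 9.67 CPM in French bulldog 1, and at most at 0.351 CPM in every other dog of the 2 breeds.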
